A study of Mus musculus with 8 samples.

Results

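The genes described here encode the alpha chains of the collagens. They are the 41 rows of the deposited table, of 17823 genes in all, whose symbol reads Col, digits, a, digits and that hold at least 1 count over the 8 libraries. By type they were grouped into 11 fibrillar chains, 6 basement membrane (type IV) chains, 9 FACIT chains (fibril-associated collagens with interrupted helices) and 15 other chains. The macrophages were differentiated from C57BL/6 mouse bone marrow over 7 days in M-CSF (20 ng, recombinant), and polyadenylated RNA was sequenced. All 8 samples, positive and negative alike, were treated with 1 µg/ml of lipopolysaccharide (LPS) of Escherichia coli O111:B4, a bacterial ligand of Toll-like receptor 4. A tdTomato (tdT) reporter marked expression of Il19, and 4 libraries were from tdT-positive and 4 from tdT-negative cells, numbered 1 to 4 in each group. The making of the reporter allele and the way the cells were separated were not given in the sources used here.

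Collagens are secreted proteins in which chains wind around each other into a stiff helix made of repeats that begin with glycine. Fibrillar chains assemble into the fibres of bone, skin, tendon and the stroma of soft organs. FACIT chains sit on the surface of those fibres, type IV chains form the meshwork of basement membranes, and other types form beaded filaments, short-chain lattices or membrane-bound collagens. Fibroblasts, osteoblasts and related stromal cells are the main makers of fibrillar collagen. Macrophages are known chiefly for taking up and degrading collagen, although they also transcribe some chain genes. Stromal cells are part of the adherent layer in cultures of bone marrow.

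The libraries hold 49850537 to 58516454 counts over genes. Levels are given as CPM, counts scaled to a common library size with factors from the trimmed mean of M values (TMM). In these units 3 counts in a library equal 0.0490 to 0.0696 CPM. Throughout, ± is the SD over n = 4 libraries. Il19, the gene of the reporter, was at 185 ± 36.6 CPM (tdT positive) against 12.0 ± 3.45 CPM (tdT negative), in the direction of the labels. The 8 macrophage markers listed, such as Csf1r, Adgre1 and Lyz2, were detected in all libraries and summed to 14233 to 18471 CPM (tdT positive) against 12007 to 21526 CPM (tdT negative). The groups were tested with edgeR's quasi-likelihood method, with p-values adjusted by the Benjamini-Hochberg method over the 12610 genes that passed the expression filter and a threshold of 0.05. Libraries with the same number in both groups varied together, so a fit that includes the number as a block is given beside the fit without it. A log2 fold change sets tdT positive over tdT negative, so that a negative value is lower in tdT-positive libraries.

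In the test with the replicate number as a block, chains of types I, III, V, VI and XII and others, 17 in all, were lower in the tdT-positive cells. Col18a1, the chain with the highest level in those libraries, did not pass the test. Of the 41 chains, 27 passed the expression filter. Of these, 17 were lower in the tdT-positive libraries, 0 were higher and 10 did not pass, against 7.81% of all genes tested called lower and 8.03% called higher. Without the block, none of the 27 passed (edgeR, adjusted p between 0.0562 and 0.993), against 0.0159% of all genes tested called lower and 0.00793% called higher. The 17 chains had adjusted p between 0.0562 and 0.180 there. In that fit 18 chains had an unadjusted p under 0.05, 17 of them lower, against 16.3% of all genes in either direction and 8.81% lower. The Wald test of DESeq2 without the block called 16 chains lower, against 4.71% of all genes. The median log2 fold change of the 27 was -2.97 without the block and -2.69 with it, beside -0.00024 and 0.0051 over all genes tested. Of the 27, 24 were above the filter's CPM minimum in all 4 libraries of both groups, and Col2a1 and Col11a1 reached it in all tdT-negative but only 3 tdT-positive libraries, so that chains low in tdT-positive libraries could enter through the other group. Col23a1 reached it in 2 libraries of each. In bulk RNA, fewer collagen-making cells and less collagen RNA per cell cannot be told apart.

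**Figure D1:**
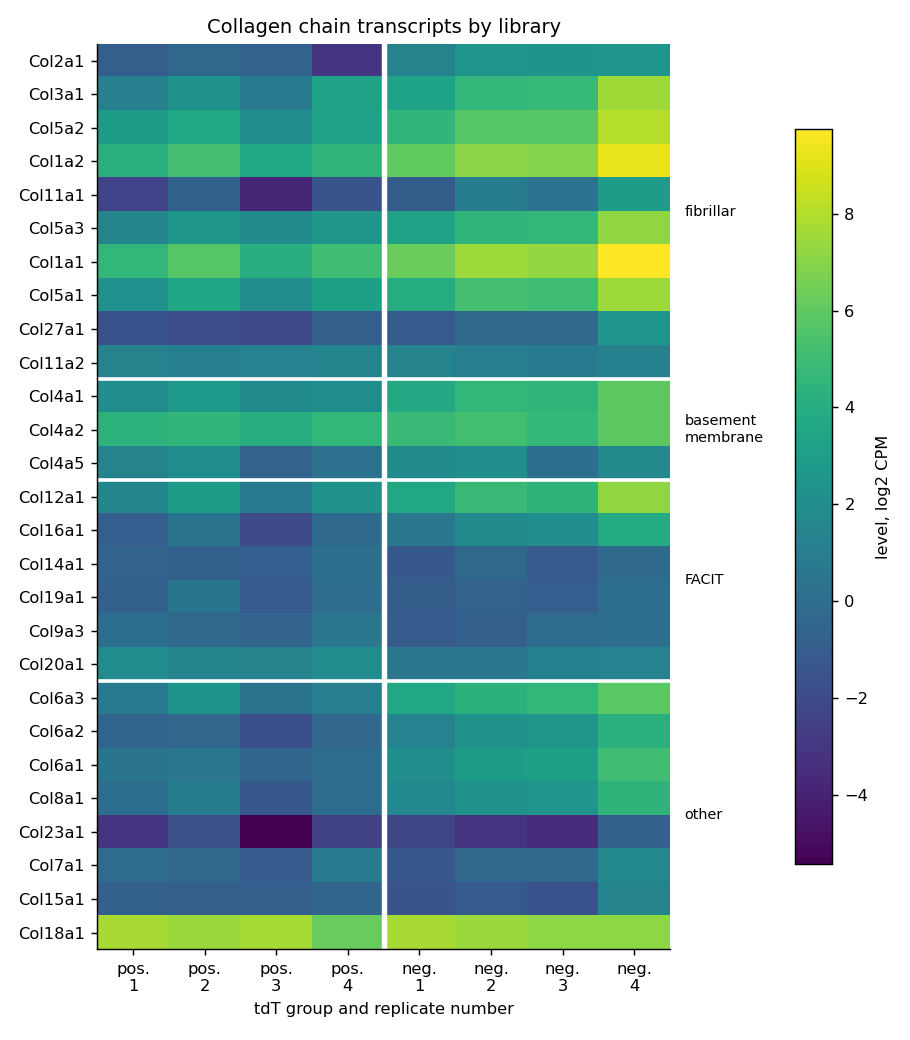
Level (log2 CPM) of the 27 collagen chains tested, with the 4 tdT-positive libraries left of the 4 tdT-negative libraries and chains grouped by type. All 17 chains called with the block were highest in tdT-negative library 4, and Col18a1 stayed between 74.1 and 218 CPM.

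Col1a1 and Col1a2 encode the chains of type I collagen, the main collagen of bone, skin and tendon. Col1a1 (Entrez 12842; GRCm38 chromosome 11, positions 94936224 to 94953042, plus strand) had 24.6, 53.6, 17.1 and 34.4 CPM in tdT-positive libraries 1 to 4, against 79.1, 186, 157 and 857 CPM in tdT-negative libraries 1 to 4. All tdT-positive libraries lay below all tdT-negative ones, tdT-positive library 3 was the lowest, and tdT-negative library 4 was 4.62 times the next highest. The means were 32.4 ± 15.8 CPM (tdT positive) against 319.6 ± 361 CPM (tdT negative). The log2 fold change was -3.30 (SE 0.76, adjusted p = 0.0701) without the block and -2.80 with the block (SE 0.50, adjusted p = 0.0147) in edgeR. Within numbers 1 to 4 the log2 differences were -1.68, -1.79, -3.19 and -4.64. Col1a2 (GRCm38 chromosome 6, positions 4504814 to 4541544, plus strand) had 18.5, 36.4, 12.2 and 22.7 CPM in tdT-positive libraries 1 to 4, against 65.7, 138, 123 and 601 CPM in tdT-negative libraries 1 to 4. It followed the same order of libraries at the top and bottom and did not overlap either, with a log2 fold change of -2.92 with the block (SE 0.49, adjusted p = 0.0126). Per kilobase of the deposited gene length, Col1a1 averaged 5.47 ± 2.66 in tdT-positive and 53.9 ± 60.9 CPM per kilobase in tdT-negative libraries, and Col1a2 4.30 ± 1.97 in tdT-positive and 44.4 ± 47.5 CPM per kilobase in tdT-negative libraries.

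Type III and type V collagen chains, which assemble with type I into stromal fibres, were lower as well. Col3a1 (GRCm38 chromosome 1, positions 45311538 to 45349706, plus strand) had 2.22, 5.01, 1.72 and 9.82 CPM in tdT-positive libraries 1 to 4, against 10.3, 24.6, 26.2 and 194 CPM in tdT-negative libraries 1 to 4. Its groups were separated only narrowly, tdT-positive library 4 at 9.82 CPM being the highest of its group and tdT-negative library 1 at 10.3 CPM the lowest of the other, and the log2 fold change was -3.22 with the block (SE 0.38, adjusted p = 0.00852). Col5a1, which with Col5a2 limits the diameter of type I fibrils, had 4.72, 11.8, 3.73 and 9.17 CPM in tdT-positive libraries 1 to 4, against 15.5, 38.3, 32.9 and 185 CPM in tdT-negative libraries 1 to 4. Col5a2 had 7.19, 12.5, 3.90 and 9.66 CPM in tdT-positive libraries 1 to 4, against 23.6, 53.1, 54.0 and 271 CPM in tdT-negative libraries 1 to 4. Both were lower in all numbers without overlap, with log2 fold changes of -2.72 with the block (SE 0.45, adjusted p = 0.0126) and -3.08 with the block (SE 0.52, adjusted p = 0.0128). Col5a3, a further type V chain, had 2.82, 6.14, 3.39 and 5.96 CPM in tdT-positive libraries 1 to 4, against 9.87, 22.3, 24.4 and 152 CPM in tdT-negative libraries 1 to 4. It also showed no overlap (log2 fold change -2.82 with the block, SE 0.48, adjusted p = 0.0129), and tdT-negative library 4 was 6.22 times the next highest.

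Chains best known from cartilage fibrils were measured at lower levels, and 3 of the 4 tested were lower in the tdT-positive libraries. Col2a1, the chain of the main cartilage collagen, had 0.556, 0.774, 0.626 and 0.114 CPM in tdT-positive libraries 1 to 4, against 2.61, 5.66, 5.42 and 5.83 CPM in tdT-negative libraries 1 to 4. It differed from the other called fibrillar chains in that tdT-negative library 4 was only 1.03 times the next highest and tdT-positive library 4, with 7 counts, was the lowest of all. Its log2 fold change was -3.27 with the block (SE 0.45, adjusted p = 0.00955). Col11a1, a chain of the minor cartilage fibril collagen, had 0.192, 0.619, 0.0696 and 0.359 CPM in tdT-positive libraries 1 to 4, against 0.521, 1.96, 1.30 and 7.86 CPM in tdT-negative libraries 1 to 4. Its groups overlapped, since tdT-positive library 2 exceeded tdT-negative library 1, and the log2 fold change was -2.88 with the block (SE 0.56, adjusted p = 0.0182). Col27a1 had 0.326, 0.275, 0.232 and 0.556 CPM in tdT-positive libraries 1 to 4, against 0.465, 0.823, 0.846 and 5.93 CPM in tdT-negative libraries 1 to 4, also with overlap, and a log2 fold change of -1.99 with the block (SE 0.46, adjusted p = 0.0304). Col11a2, by contrast, was at 2.47 ± 0.223 CPM (tdT positive) against 2.19 ± 0.351 CPM (tdT negative) and did not pass (log2 fold change 0.18 with the block, SE 0.14, adjusted p = 0.425).

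**Figure D2:**
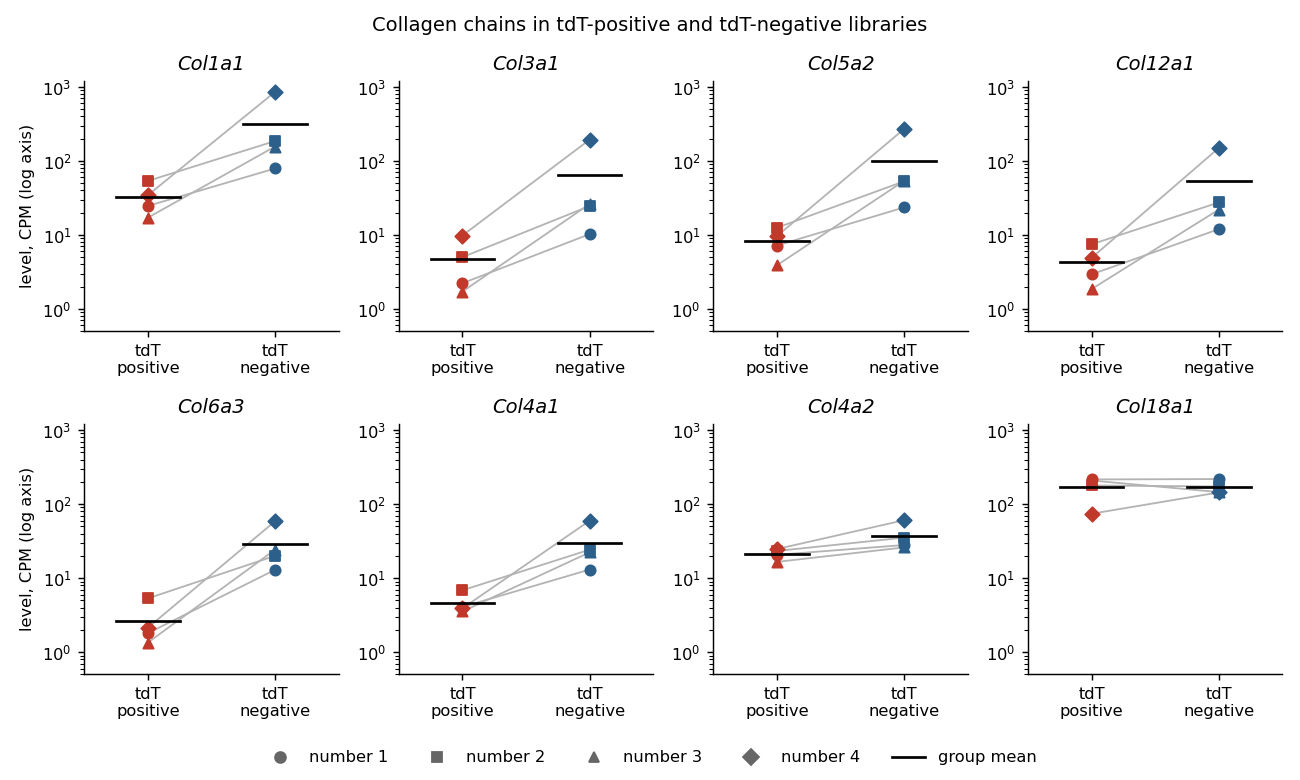
Level (CPM, log axis) of 8 chains in each library, tdT positive left of tdT negative, with libraries of the same number joined and a bar at the group mean. Col1a1, Col3a1, Col5a2, Col12a1, Col6a3, Col4a1 and Col4a2 were lower in the tdT-positive library of every number, and Col18a1 in 2 of 4 numbers.

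Among basement membrane chains, Col4a1 and Col4a2, which pair in the type IV collagen of nearly all basement membranes, were both lower with the block. Col4a1 (GRCm38 chromosome 8, positions 11198423 to 11312826, minus strand) had 4.09, 6.85, 3.55 and 3.91 CPM in tdT-positive libraries 1 to 4, against 13.0, 24.2, 22.3 and 59.7 CPM in tdT-negative libraries 1 to 4. Col4a2 (GRCm38 chromosome 8, positions 11312805 to 11449287, plus strand) had 20.7, 23.3, 16.6 and 24.7 CPM in tdT-positive libraries 1 to 4, against 28.0, 35.3, 26.0 and 60.7 CPM in tdT-negative libraries 1 to 4. Neither overlapped between groups, and the log2 fold changes were -2.51 with the block (SE 0.36, adjusted p = 0.00994) for Col4a1 and -0.75 with the block (SE 0.14, adjusted p = 0.0156) for Col4a2. The ratio of Col4a1 to Col4a2, each per kilobase, was 0.192, 0.286, 0.208 and 0.154 in tdT-positive libraries 1 to 4, against 0.453, 0.669, 0.834 and 0.957 in tdT-negative libraries 1 to 4. The ratio in all 4 tdT-positive libraries was below that in every tdT-negative library; it was singled out after its values were seen, so no test is given. Col4a5, a type IV chain of kidney and other specialised basement membranes, was at 2.08 ± 1.41 CPM (tdT positive) against 2.97 ± 1.31 CPM (tdT negative); it was lower in all 4 numbers, overlapped between groups and did not pass (log2 fold change -0.63 with the block, SE 0.23, adjusted p = 0.104).

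The genes Col4a1 and Col4a2 are transcribed away from each other, and their annotated 5′ ends overlap by 22 bases (GENCODE M21, GRCm38). Their RefSeq promoter windows, 250 bases before to 50 after each start on GRCm38.p6, share 78 bases on opposite strands, shown in capitals:
Col4a1 (chr8:11312777-11313076, minus strand): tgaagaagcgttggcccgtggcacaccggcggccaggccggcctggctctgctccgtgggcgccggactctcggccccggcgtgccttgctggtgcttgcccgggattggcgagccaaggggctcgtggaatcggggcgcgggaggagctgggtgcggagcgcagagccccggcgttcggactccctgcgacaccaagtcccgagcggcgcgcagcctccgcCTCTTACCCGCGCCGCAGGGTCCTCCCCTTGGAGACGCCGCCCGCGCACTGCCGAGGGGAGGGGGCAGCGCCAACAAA
Col4a2 (chr8:11312555-11312854, plus strand): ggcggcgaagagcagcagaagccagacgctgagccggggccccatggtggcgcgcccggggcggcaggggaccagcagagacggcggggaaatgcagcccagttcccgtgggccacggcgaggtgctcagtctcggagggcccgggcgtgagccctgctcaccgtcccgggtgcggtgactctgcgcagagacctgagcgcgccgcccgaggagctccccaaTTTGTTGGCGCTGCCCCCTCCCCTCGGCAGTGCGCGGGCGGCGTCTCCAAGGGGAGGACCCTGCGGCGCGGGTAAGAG
With the strand setting of the counting tool not given in the sources used here, reads within the 22 shared bases could have gone to either gene. Similar head-to-head pairs are Col4a3 with Col4a4, 71 bases apart, and Col4a5 with Col4a6, 1308 bases apart. Col4a3 and Col4a4 had 3 and 0 counts over the tdT-positive libraries and 2 and 1 over the tdT-negative ones, and Col4a6 had 23 and 37 in the same order. None of these 3 passed the filter. Of other neighbours, Col3a1 and Col5a2 lie tail to tail 24614 bases apart on chromosome 1 and were both lower with the block. Col6a1 and Col6a2 lie 85161 bases apart on chromosome 10 and were both lower with the block. Col9a1 and Col19a1 lie 9205 bases apart on chromosome 1, where Col19a1 was not called and Col9a1 did not pass the filter. Col6a4 and Col6a5 lie 28810 bases apart on chromosome 9, and neither passed the filter.

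In the FACIT class, 2 of 6 tested chains were lower with the block and 4 did not pass. Col12a1, which coats type I fibrils, had 2.93, 7.47, 1.86 and 4.90 CPM in tdT-positive libraries 1 to 4, against 12.0, 27.5, 22.0 and 149.7 CPM in tdT-negative libraries 1 to 4. Its groups did not overlap, and its log2 fold change was -3.09 with the block (SE 0.52, adjusted p = 0.0127). Col16a1 had 0.537, 1.34, 0.255 and 0.833 CPM in tdT-positive libraries 1 to 4, against 1.56, 3.36, 4.03 and 14.5 CPM in tdT-negative libraries 1 to 4, with a log2 fold change of -2.69 with the block (SE 0.53, adjusted p = 0.0190) and no overlap. Col20a1 was the only chain whose tdT-positive libraries all lay above the tdT-negative ones, a pattern found in 5.46% of all genes tested. It had 3.76, 2.62, 2.60 and 3.68 CPM in tdT-positive libraries 1 to 4, against 1.53, 1.49, 2.38 and 2.42 CPM in tdT-negative libraries 1 to 4, and its log2 fold change was 0.71 with the block (SE 0.20, adjusted p = 0.0547), so that it did not pass, nor did it without the block (adjusted p = 0.201). In the blocked design it passed with DESeq2 (adjusted p = 0.0380), with no filter (adjusted p = 0.0362) and without number 4 (adjusted p = 0.0378). Col14a1, Col19a1 and Col9a3 averaged between 0.645 and 0.996 CPM in either group, overlapped and did not pass (log2 fold changes 0.18, 0.27 and 0.42).

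The type VI chains, which form beaded microfilaments around many stromal cells, were all lower where measurable. Col6a1 had 1.32, 1.48, 0.719 and 0.964 CPM in tdT-positive libraries 1 to 4, against 4.24, 7.89, 9.08 and 33.6 CPM in tdT-negative libraries 1 to 4. Col6a2 had 0.710, 0.757, 0.301 and 0.752 CPM in tdT-positive libraries 1 to 4, against 2.44, 5.12, 6.01 and 18.7 CPM in tdT-negative libraries 1 to 4. Col6a3, the longest of them, had 1.80, 5.32, 1.35 and 2.14 CPM in tdT-positive libraries 1 to 4, against 13.0, 20.0, 24.2 and 58.7 CPM in tdT-negative libraries 1 to 4. None overlapped, tdT-positive library 3 was the lowest for each, and the log2 fold changes were -3.21 with the block (SE 0.53, adjusted p = 0.0125), -3.36 with the block (SE 0.46, adjusted p = 0.00955) and -3.38 with the block (SE 0.46, adjusted p = 0.00955) in that order. Col8a1, a short-chain collagen of vessel walls and the cornea, had 1.02, 1.89, 0.417 and 0.948 CPM in tdT-positive libraries 1 to 4, against 3.18, 5.02, 5.55 and 21.3 CPM in tdT-negative libraries 1 to 4, again without overlap (log2 fold change -2.75 with the block, SE 0.54, adjusted p = 0.0189). Col6a4 had 3 counts over the tdT-positive and 40 over the tdT-negative libraries, 28 of them in tdT-negative library 4, and did not pass the filter.

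Col18a1 encodes a basement membrane collagen whose C-terminal fragment is endostatin. It had 215, 179, 208 and 74.1 CPM in tdT-positive libraries 1 to 4, against 218, 173, 145 and 144 CPM in tdT-negative libraries 1 to 4. The groups overlapped, and the single library that stood lowest was tdT-positive library 4, whereas tdT-negative library 4, highest for the 17 called chains, was the lowest of its own group. The means were 169 ± 65.3 CPM (tdT positive) against 170.1 ± 34.7 CPM (tdT negative), and the log2 fold change was -0.01 (SE 0.31, adjusted p = 0.993) without the block and -0.10 with the block (SE 0.21, adjusted p = 0.777). Per kilobase, Col18a1 averaged 29.2 ± 11.3 in tdT-positive and 29.4 ± 6.00 CPM per kilobase in tdT-negative libraries. It was the chain with the highest level per kilobase in all 4 tdT-positive libraries and in tdT-negative library 1, while Col1a1 was highest in tdT-negative libraries 2 to 4. Of all collagen counts, Col18a1 made up 66.8, 48.6, 73.1 and 33.7% in tdT-positive libraries 1 to 4, against 42.5, 22.1, 20.8 and 5.03% in tdT-negative libraries 1 to 4.

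To set a chain that was lower beside one that was not called, the promoter windows of Col1a2 and Col18a1 are given, with the CCAAT pentamer and its reverse complement ATTGG in capitals; CCAAT boxes are known elements of type I collagen promoters.
Col1a2 (chr6:4505368-4505667, plus strand): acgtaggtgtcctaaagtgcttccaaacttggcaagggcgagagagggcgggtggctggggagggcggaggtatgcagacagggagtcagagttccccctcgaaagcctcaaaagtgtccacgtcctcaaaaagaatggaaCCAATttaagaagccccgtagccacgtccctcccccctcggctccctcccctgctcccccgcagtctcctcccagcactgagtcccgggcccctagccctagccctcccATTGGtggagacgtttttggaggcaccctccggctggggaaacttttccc
Col18a1 (chr10:77166481-77166780, minus strand, 1 of 2 windows): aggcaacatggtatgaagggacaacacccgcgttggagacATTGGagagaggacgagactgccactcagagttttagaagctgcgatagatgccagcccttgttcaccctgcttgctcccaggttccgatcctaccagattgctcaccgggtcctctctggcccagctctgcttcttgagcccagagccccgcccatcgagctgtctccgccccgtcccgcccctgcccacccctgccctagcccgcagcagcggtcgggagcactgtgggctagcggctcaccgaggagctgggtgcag
The pentamer on either strand was present in 6 of 14 windows of the called chains, in 3 of 9 windows of the tested chains not called, and in 37.4% of 32851 mouse windows of the same length. The table held windows for 33 of the 41 members, and not for Col1a1. Of the 2 windows of Col18a1, the window printed was chosen because it holds the pentamer, and the other window does not hold it. The Col1a2 window lies inside the GENCODE span of that gene given above, since the RefSeq and GENCODE starts differ. The shares of windows with the pentamer are a description of the letters in the windows.

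The remaining chains were low. Col7a1, of the anchoring fibrils of skin, averaged 1.01 ± 0.582 CPM (tdT positive) against 1.29 ± 1.24 CPM (tdT negative), Col15a1, a relative of Col18a1, 0.601 ± 0.0704 CPM (tdT positive) against 0.925 ± 1.10 CPM (tdT negative), and Col23a1, a membrane-bound chain, 0.157 ± 0.120 CPM (tdT positive) against 0.247 ± 0.224 CPM (tdT negative); all overlapped between groups and did not pass. Col15a1 was at 2.57 CPM in tdT-negative library 4 and between 0.324 and 0.703 CPM in the other 7. The 14 chains below the filter had 1 to 60 counts each over all 8 libraries, and 9 of them had fewer counts over the tdT-positive than over the tdT-negative libraries. These counts are too low to compare singly.

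Across replicate numbers the size of the difference varied. Among the 17 called chains the median log2 difference was -1.71, -1.86, -3.57 and -4.63 in numbers 1 to 4. All 17 were lower in 4 of 4 numbers, against 19.6% of all genes tested, and 15 showed no overlap between groups, against 5.92%. All 17 were highest in tdT-negative library 4, against 20.3% of all genes, and 15 were lowest in tdT-positive library 3, against 14.4%. Because the blocked fit called these chains from the same pairs, the shares describe them and are no separate evidence. Without number 1 or number 4 the blocked fit called the same 17 chains lower, without number 2 it called 9 of them, and without number 3 only Col3a1 (adjusted p = 0.0492). Of all genes tested, 4.72, 2.01, 0.993 and 10.4% were called lower in the blocked fits without numbers 1 to 4. For Col1a1 the adjusted p was 0.0540 in edgeR when number 2 was left out and 0.0804 when number 3 was. Without tdT-negative library 4 the fit without the block called 9 chains lower, and without tdT-negative library 1 it called 13, in place of none. The shares of all genes called lower were 1.49% and 3.06% in that order.

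**Figure D3:**
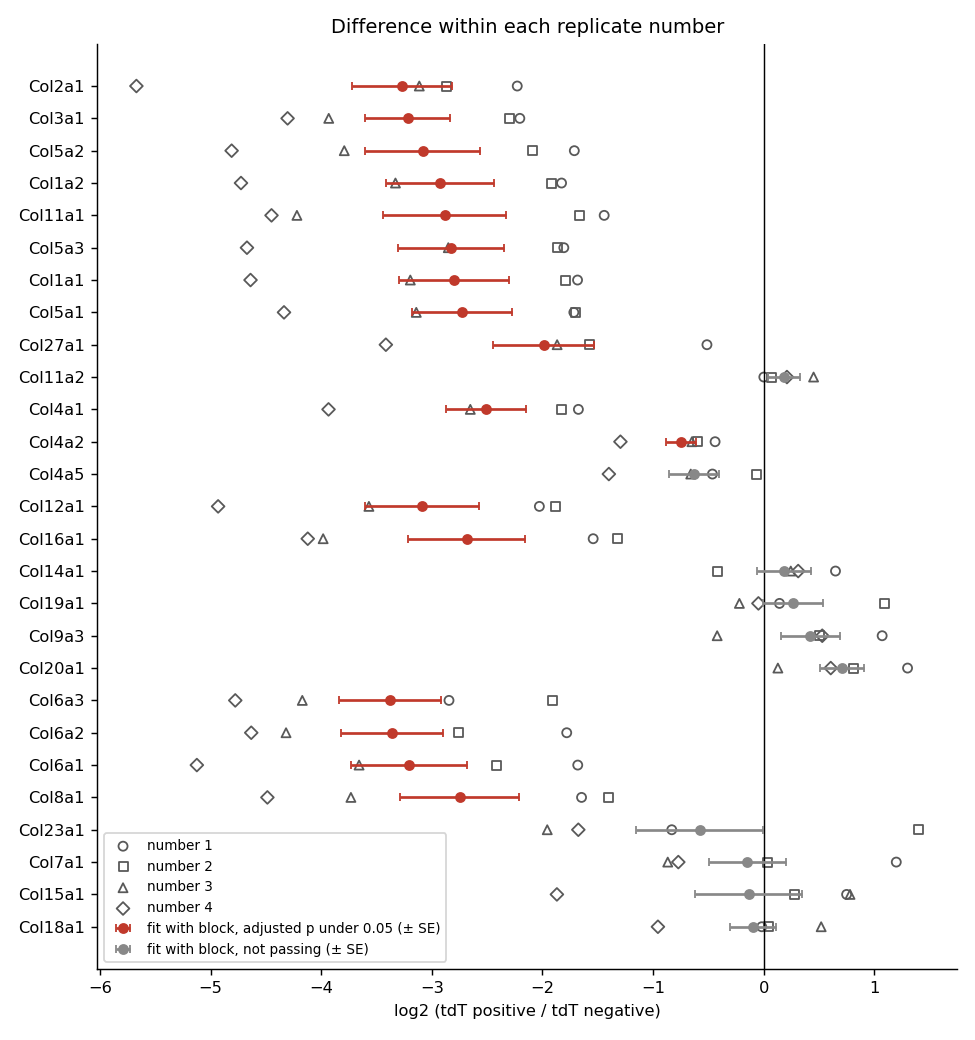
Log2 difference of tdT-positive over tdT-negative libraries within each replicate number (open symbols) and the log2 fold change of the fit with the block (filled, with SE) for the 27 chains tested. Numbers 3 and 4 lay farther from 0 than numbers 1 and 2 for most called chains, with medians of -3.57 and -4.63 against -1.71 and -1.86.

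Co-variation with Col1a1 was described by the log2 ratio of each chain to Col1a1 in every library, for the 18 other chains with at least 20 counts in all 8. The libraries fall into 2 groups of 4 and are paired, so no correlation was computed. The ratio was steadiest for Col1a2, with an SD of 0.109 over the 8 libraries although the log2 level of Col1a2 itself had an SD of 1.86. Next came Col5a1 (SD 0.145) and Col5a2 (SD 0.203). The ratio varied most for Col20a1 (SD 2.12), Col18a1 (SD 1.98) and Col11a2 (SD 1.94), whose own log2 levels had SDs of 0.495, 0.513 and 0.203. The log2 level of Col1a1 itself had an SD of 1.84, so any chain at a steady level gets a ratio SD near that value. Ranked by this SD, the 10 called chains that met the count minimum took the first 10 places, from 0.109 to 1.32. The 8 chains not called took the last 8, from 1.55 to 2.12. Since Col1a1 itself was called, that order partly repeats the calls. Col2a1, Col11a1, Col27a1, Col16a1, Col6a2 and Col8a1 were also called but did not hold 20 counts in every library and were not ranked. Col4a2 was intermediate, with a level SD of 0.564.

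**Figure D4:**
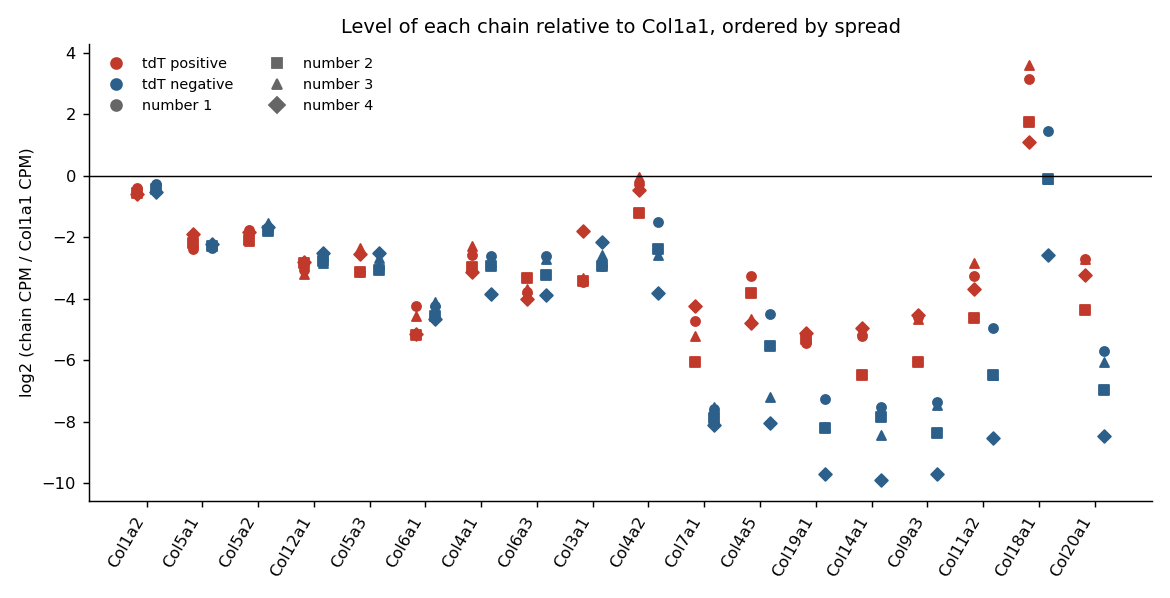
Log2 ratio of the CPM of 18 chains to that of Col1a1 in each library, ordered by the SD of the ratio, with tdT positive left of tdT negative for each chain. The ratio of Col1a2 spans a narrow band in both groups, and that of Col18a1 averages 2.40 in tdT-positive and -0.33 in tdT-negative libraries.

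Within collagen types the proportions of chains were compared per kilobase. Col1a2 over Col1a1 was 0.853, 0.772, 0.812 and 0.750 in tdT-positive libraries 1 to 4, against 0.943, 0.841, 0.891 and 0.796 in tdT-negative libraries 1 to 4. The ranges of this ratio overlapped between groups, and within each of the 4 numbers it was lower in the tdT-positive library; the difference was not tested. Col3a1 over Col1a1 was 0.0963, 0.0995, 0.107 and 0.304 in tdT-positive libraries 1 to 4, against 0.138, 0.141, 0.178 and 0.241 in tdT-negative libraries 1 to 4. Both libraries of number 4 had more Col3a1 relative to Col1a1 than the other libraries of their group. Col6a2 over Col6a1 averaged 0.599 ± 0.164 in tdT-positive and 0.651 ± 0.0572 in tdT-negative libraries, and these also overlapped.

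Summed over the 41 chains, the share of collagen in all counts was 0.0312, 0.0377, 0.0246 and 0.0231% in tdT-positive libraries 1 to 4, against 0.0495, 0.0797, 0.0686 and 0.330% in tdT-negative libraries 1 to 4. The tdT-positive libraries were all below the tdT-negative ones, of which library 4 was the highest. Of the collagen counts, type I chains held 13.4, 24.5, 10.3 and 25.9% in tdT-positive libraries 1 to 4, against 28.2, 41.3, 40.0 and 51.0% in tdT-negative libraries 1 to 4. The share of type I chains was thus lower in each tdT-positive library than in the tdT-negative library of its number. Fibrillar chains summed to 63.7, 129, 45.4 and 95.4 CPM in tdT-positive libraries 1 to 4, against 210.1, 472, 426 and 2282 CPM in tdT-negative libraries 1 to 4. Basement membrane chains summed to 27.4, 34.2, 20.8 and 30.0 CPM in tdT-positive libraries 1 to 4, against 44.7, 63.8, 49.4 and 124 CPM in tdT-negative libraries 1 to 4. Both of these sums were lower in every tdT-positive library than in any tdT-negative one. The class of other chains, which holds Col18a1, summed to 222, 189.9, 212 and 81.8 CPM in tdT-positive libraries 1 to 4, against 242, 213, 192 and 283 CPM in tdT-negative libraries 1 to 4. That sum overlapped between groups and was higher in the tdT-positive library of number 3. FACIT chains summed to 9.49, 14.2, 6.38 and 13.0 CPM in tdT-positive libraries 1 to 4, against 16.5, 34.3, 30.4 and 169.6 CPM in tdT-negative libraries 1 to 4.

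Most of the listed markers of stromal cells other than collagens moved with these chains. Of 16 fibroblast and stromal markers listed, all were detected and 13 tested, 11 were lower with the block, 0 were higher and 2 (Dcn and Fap) did not pass, beside 7.81% of all genes called lower and 8.03% called higher. Without the block edgeR called none of them, 11 had an unadjusted p under 0.05, all lower, beside 8.81% of all genes, and DESeq2 called 10 lower, beside 4.71%. Their summed level was 48.9, 81.2, 39.2 and 54.9 CPM in tdT-positive libraries 1 to 4, against 146, 287, 355 and 953 CPM in tdT-negative libraries 1 to 4. The sum was lower in every tdT-positive library than in any tdT-negative one and had the same highest and lowest libraries as Col1a1. Sparc, a collagen-binding matrix protein gene, averaged 11.7 ± 4.50 CPM (tdT positive) against 133 ± 133 CPM (tdT negative), and Acta2, the smooth muscle actin gene, 12.2 ± 4.50 CPM (tdT positive) against 85.3 ± 45.1 CPM (tdT negative). By contrast, Dcn averaged 5.12 ± 1.32 CPM (tdT positive) against 5.77 ± 2.28 CPM (tdT negative), and Fap 0.622 ± 0.155 CPM (tdT positive) against 0.613 ± 0.258 CPM (tdT negative). Col1a1 as a fraction of the stromal sum was 0.504, 0.660, 0.436 and 0.626 in tdT-positive libraries 1 to 4, against 0.541, 0.647, 0.441 and 0.900 in tdT-negative libraries 1 to 4. That fraction overlapped between groups, with means of 0.557 ± 0.105 and 0.632 ± 0.197 in tdT-positive and tdT-negative libraries. The stromal sum was 0.212 to 0.440% of the macrophage marker sum in tdT-positive and 0.83 to 7.94% in tdT-negative libraries. The part of stromal cells in the collagen differences was not tested.

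**Figure D5:**
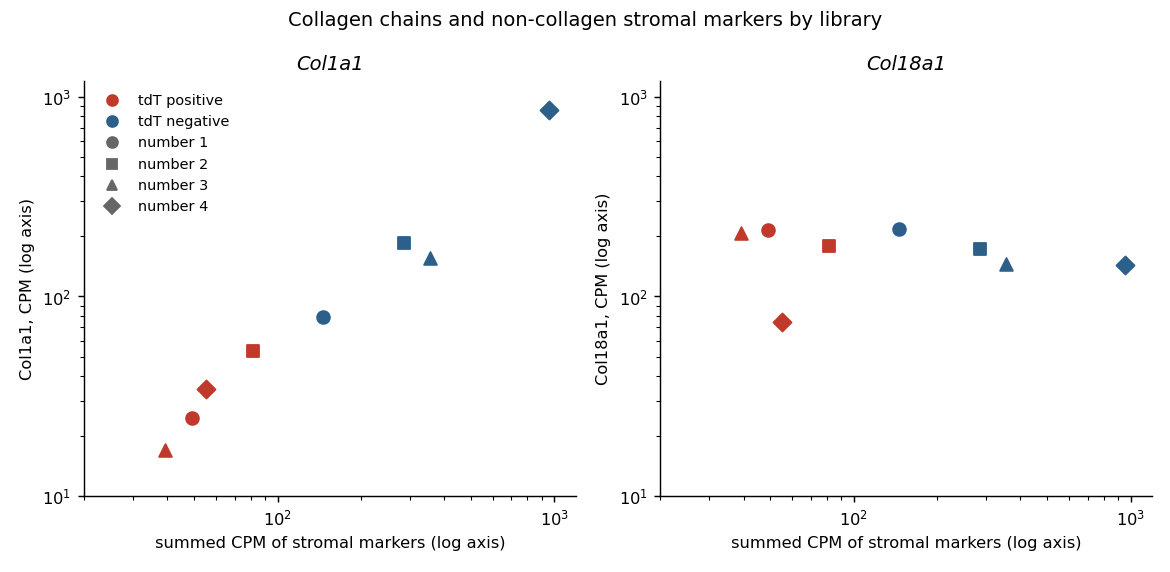
Level of Col1a1 (left) and Col18a1 (right) against the summed level of 16 non-collagen stromal markers in each library, all in CPM on log axes. Col1a1 was lowest and highest in the libraries with the lowest (39.2 CPM) and highest (953 CPM) stromal sums, and Col18a1 was not.

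Osteoblast and endothelial cells also make collagen. Of 8 osteoblast markers, 6 were detected and 1 was tested; Runx2, that gene, was at 1.78 ± 0.122 CPM (tdT positive) against 3.32 ± 1.81 CPM (tdT negative) and did not pass, Bglap had 0 counts over the tdT-positive and 1 over the tdT-negative libraries, and Bglap2 and Dmp1 were not detected. Alpl, not tested, had 13 counts over the tdT-positive and 281 over the tdT-negative libraries, 249 of them in tdT-negative library 4. Sp7 had 7 and 58, Ibsp 1 and 16 and Phex 2 and 8 in the same order, and were not tested either. The osteoblast markers had a summed level of 1.76 to 2.08 CPM (tdT positive) against 1.75 to 11.1 CPM (tdT negative), highest in tdT-negative library 4. Of 8 endothelial markers, 5 were tested and edgeR called none with the block, 3 having an unadjusted p under 0.05, and DESeq2 without the block also called 0. Of these 3, Kdr and Vwf were lower and Cdh5 was higher (log2 fold changes -0.58, -0.73 and 0.48 with the block). At least the 7.81% of all genes called lower and the 8.03% called higher also had such a p. The full share was not computed, so the count of 3 is not read as a result. Pecam1, which myeloid cells express too, was at 19.6 ± 9.70 CPM (tdT positive) against 21.7 ± 14.2 CPM (tdT negative). The markers had summed levels of 18.7 to 41.0 CPM (tdT positive) against 19.1 to 49.5 CPM (tdT negative); Emcn had 0 counts over the tdT-positive and 1 over the tdT-negative libraries, and Cldn5 was not detected. Of the 8 macrophage markers, Mertk, an apoptotic cell receptor gene, was higher with the block at 19.0 ± 5.36 CPM (tdT positive) against 11.3 ± 2.12 CPM (tdT negative), and the other 7 did not pass. The log2 fold change of Mertk was 0.73 with the block (edgeR, SE 0.11, adjusted p = 0.0109). A count of 1 higher of 8 is near the 8.03% of all genes called higher.

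Genes that process collagen chains were described in 3 lists. Without the block edgeR called no gene of the 3 pathway lists. DESeq2 called 4 of 15 modification and folding enzymes, 7 of 11 secretion and cross-linking genes and 4 of 9 receptors lower. Of all genes, it called 4.71% lower. Unadjusted p in edgeR was under 0.05 for 6, 8 and 5 genes of the lists in that order, beside 16.3% of all genes. All of these were lower except 1 of the 5 receptors, which was higher. Of 15 modification and folding enzymes tested, 5 were lower with the block and 10 did not pass, beside 7.81% of all genes called lower and 8.03% called higher; the median log2 fold change was -0.29. Serpinh1, the collagen chaperone, averaged 5.85 ± 2.73 CPM (tdT positive) against 66.5 ± 56.1 CPM (tdT negative), with a log2 fold change of -3.24 with the block, SE 0.46, adjusted p = 0.00998. Plod2, a lysyl hydroxylase, had a log2 fold change of -2.50 with the block (SE 0.34, adjusted p = 0.00941), P4ha3, a prolyl hydroxylase subunit, of -2.93 with the block (SE 0.48, adjusted p = 0.0123), and Fkbp10, a prolyl isomerase, of -3.10 with the block (SE 0.55, adjusted p = 0.0147). P4hb, which also serves other secreted proteins, was at 2058 ± 276 CPM (tdT positive) against 1903 ± 225 CPM (tdT negative) and did not pass, nor did Plod1 at 478 ± 109 CPM (tdT positive) against 481 ± 152 CPM (tdT negative).

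Genes of collagen secretion, propeptide removal and cross-linking were mostly lower with the block. Of 11 tested, 9 were lower, 1 was higher and 1 did not pass in that fit, beside 7.81% of all genes called lower and 8.03% called higher, with a median log2 fold change of -2.14. Loxl1 and Loxl4, which belong to the lysyl oxidase family that cross-links collagen, averaged 0.830 ± 0.293 CPM (tdT positive) against 8.66 ± 6.07 CPM (tdT negative) and 0.361 ± 0.0932 CPM (tdT positive) against 3.22 ± 2.32 CPM (tdT negative). Their log2 fold changes were -3.18 with the block (SE 0.41, adjusted p = 0.00921) and -2.95 with the block (SE 0.41, adjusted p = 0.00957). Pcolce, an enhancer of C-propeptide removal, and Adamts14, a procollagen N-proteinase, had log2 fold changes of -3.22 and -2.75. Lox, the member of the list with the highest mean level, averaged 218 ± 126 CPM (tdT positive) against 324 ± 225 CPM (tdT negative). Its groups overlapped, and its log2 fold change was only -0.55 with the block (SE 0.12, adjusted p = 0.0278). The member that was higher, Mia3, which loads large cargo such as procollagen into transport carriers and is named after its value was seen, averaged 92.3 ± 8.47 CPM (tdT positive) against 79.5 ± 9.14 CPM (tdT negative); 1 higher of 11 is near the share of all genes called higher.

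Among receptors and uptake proteins for collagen, members were called in both directions with the block. Of 9 tested, 4 were lower, 2 were higher and 3 did not pass in that fit, beside 7.81% of all genes called lower and 8.03% called higher. Mrc1, the macrophage mannose receptor, which also binds collagen, was higher at 45.2 ± 15.8 CPM (tdT positive) against 24.7 ± 9.77 CPM (tdT negative), with a log2 fold change of 0.89 with the block, SE 0.06, adjusted p = 0.00302. Mrc2, the collagen uptake receptor of fibroblasts, was lower at 0.521 ± 0.179 CPM (tdT positive) against 5.12 ± 5.10 CPM (tdT negative), with a log2 fold change of -2.97 with the block, SE 0.39, adjusted p = 0.00921. Ddr1, a receptor tyrosine kinase for collagen, and Itga11, a collagen-binding integrin chain, had log2 fold changes of -3.22 and -2.52. Lair1, an inhibitory collagen receptor of leukocytes, averaged 67.2 ± 9.44 CPM (tdT positive) against 77.8 ± 17.3 CPM (tdT negative) and did not pass.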

How the data were processed

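Polyadenylated RNA of 8 samples was sequenced from libraries made with a stranded kit from 220 ng of total RNA, per the labels' protocols. The authors deposited a single table of whole-number counts, with gene lengths and symbols. STAR and mm10 are named in the submitters' processing notes; the version, counter, annotation and strandedness were not given in the sources used here. Each column was matched to its sample through the identifier in the description.

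Genes passing edgeR's default filter (version 4.0.16, at least 10 counts, total of at least 15) were scaled by TMM and tested with the quasi-likelihood test, with group as the only term. Adjusted p-values are over all 12610 genes tested, also those of the blocked fit. Deviations from the group means correlated by 0.63, 0.28, 0.62 and 0.56 between libraries of the numbers 1 to 4 that the titles share between groups, all above 0.1, so the blocked values are given where they change a call. The labels call the samples biological replicates but name no mouse or culture, so p-values cover only the spread between these samples, which may be technical. Libraries differed beyond sampling noise (chi-square per degree of freedom at least 54.0 within a group). Alternatives were DESeq2 1.42.0 (size factors and Wald test), library totals, other filters, leaving out libraries, and their combinations with the block.

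Members and gene lists were chosen with earlier results of these data known. Values in every library are given for members called in either fit, for Col1a1 and for the 2 chains of each class with the highest level per kilobase, and up to 4 called members with the smallest p are named per pathway list. Col11a2, Col20a1 and other members, Mia3, Lox, Lair1, P4hb, Plod1 and the marker genes are named outside that rule, after their values were seen. Positions are from GENCODE M21 (GRCm38) and promoter sequences from RefSeq (GRCm38.p6). The CPM floors cover counting error only, whereas the SDs and SEs also hold the spread between libraries.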

Additional observations from a re-analysis of the deposited data

Results flagged for a closer look

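In 36 groups of 4 libraries (18 chains, each in tdT-positive and tdT-negative libraries), the gap between the most extreme CPM value and its neighbour was compared with the range of the group. It exceeded the 95% critical value of Dixon's test for 4 values in 13. Chance gives about 1 in 20 groups where values are normally distributed. CPM was not logged here, and the 18 chains were the called ones and Col18a1. The count of 13 is therefore a description and no test of outlying libraries. In 10 of the 13, tdT-negative library 4 was far above the other tdT-negative libraries. The share of the range taken by that gap was 0.863 for Col1a1, 0.866 for Col1a2, 0.930 for Col27a1, 0.913 for Col3a1, 0.866 for Col5a1, 0.877 for Col5a2, 0.897 for Col5a3, 0.887 for Col12a1, 0.836 for Col6a1 and 0.869 for Col8a1. The others were Col4a1, with tdT-positive library 2 far above the rest of its group (0.837), Col6a2, with tdT-positive library 3 far below (0.896), and Col2a1, with tdT-negative library 1 far below (0.873). These chains vary together over the libraries, so the 13 are not independent of each other.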

How the results depend on the processing

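The number of collagen chains called lower, none without the block, was 17 with the replicate block and 16 with the Wald test of DESeq2 alone. With the block it was 17 with size factors of DESeq2, with library totals and with the Wald test of DESeq2, and 18 with no filter; it was 7 with no filter and no block. The shares of all genes called lower were 7.99, 7.90, 9.90, 7.10 and 1.03% in that order. Leaving out single libraries gave 0 to 13 chains lower, beside 0.00777 to 3.06% of all genes. Leaving out both libraries of a number with the block gave 17, 9, 1 and 17 for numbers 1 to 4. The shares of all genes were 4.72, 2.01, 0.993 and 10.4% there. Chains called higher were 1 (Col20a1) with the block and the Wald test, with the block and no filter, and in 0 to 1 when replicates were left out. Over all genes the 3 calls became 1998 with the replicate block, 921 with the Wald test, and 216 with no filter. With the block they were 1990 with size factors, 1418 with library totals, of which 29.8% were higher against 50.7% under TMM, 2338 with no filter and 2504 with the Wald test. They were 2 to 456 without single libraries and, in the blocked fit, 1023, 347, 355 and 2535 without numbers 1 to 4. The median log2 fold change of the chains tested was -1.56 with no filter and -1.58 with the block and no filter, where 41 chains entered, and -3.41 to -1.99 when libraries or numbers were left out. Col1a1, at -3.30 (edgeR, adjusted p = 0.0701), passed at -2.80 with the block, -3.32 with the Wald test, and, with the block, at -2.80 with size factors, -2.87 with library totals, -2.79 with no filter and -2.80 with the Wald test; it lay between -3.65 and -2.12 when single libraries were left out, and at -3.20, -3.19, -2.65 and -2.18 with the block and without numbers 1 to 4. Col18a1, at -0.01, was -0.14 without tdT-positive library 1 and changed sign, at 0.00081 with no filter, 0.14 without tdT-negative library 1, 0.24 without tdT-positive library 4 and 0.19 with the block without number 4, and did not pass in any of these. The cause of these changes was not tested. All 372 log2 fold changes of the 17 chains under the alternatives stayed below 0, from -4.42 to -0.49. Without the filter more genes enter, and leaving out libraries leaves fewer samples. Scaling by library totals moved the median of all genes by -0.076 (log2).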
